A study of Rattus norvegicus with 3 samples.

Results

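Slc1a3, Slc1a2 and Glul are the genes by which support and glial cells take up glutamate and turn it into glutamine. They were chosen by name for this role and not by a measured value, though earlier results of these data were known. They are 3 of the 32623 genes in each matrix (ENSRNOG00000016163, ENSRNOG00000005479 and ENSRNOG00000049560). Single cells were dissociated from the cochlear duct of untreated Sprague-Dawley rats on postnatal day 1 (P1), 7 (P7) and 14 (P14). Tissue of many rats was pooled at each stage and gave 1 library by 10x Genomics 3′ chemistry, so no stage has a replicate. No animal carried a mutation or received an agent, and stage is what separates the groups.

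Glutamate is the transmitter released by inner hair cells onto the fibers of spiral ganglion neurons, and it is toxic to these fibers when it lingers. Slc1a3 encodes GLAST, a sodium-coupled transporter known from astrocytes, Müller glia and the support cells around inner hair cells. Slc1a2 encodes GLT-1, the main glutamate transporter of forebrain astrocytes. Glul encodes glutamine synthetase, which joins ammonia to glutamate in the cytosol of glia and many other cells. The product, glutamine, can be passed back to neurons.

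Of 34927 barcodes, 30641 were kept as cells: 12779 at P1, 12581 at P7 and 5281 at P14. The median cell held 6565, 6878 and 1614 UMIs (unique molecular identifiers, each standing for 1 captured RNA molecule), so P14 was the shallowest library. Pairs of libraries shared between 16 and 53 barcodes among kept cells. The labels call the cells greater epithelial ridge cells, an epithelial cell type, but a cluster led by cochlear duct epithelium markers (Epcam, Epyc, Tectb) held only 565 cells (1.84%). A hair cell-like cluster, led by Acbd7 and Calb1 and containing Otof, held 21 cells, all from P1. The libraries are therefore described as whole-tissue libraries.

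Levels are given as CPM, the UMIs of a gene per 1000000 UMIs of the same cells, with an exact Poisson interval at the 95% level. The interval covers counting error only: the spread between animals was not measured, no test of a difference was possible, and a stage cannot be told apart from its library. Since 3′ counts do not allow levels to be set against each other between genes, each gene is compared only with itself.

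Over all kept cells, Slc1a3 had 27713 UMIs and 283 CPM at P1 (279 to 286), 12722 UMIs and 137 CPM at P7 (134 to 139), and 3091 UMIs and 266 CPM at P14 (256 to 275). The level at P7 was thus below that on either side of it (log2 ratio −1.05 against P1, and 0.96 for P14 against P7). Slc1a2 was sparse in every library, with 606 UMIs and 6.18 CPM at P1 (5.70 to 6.70), 156 UMIs and 1.68 CPM at P7 (1.42 to 1.96), and 8 UMIs and 0.687 CPM at P14 (0.297 to 1.35). Its level was lower at each later stage, with log2 ratios of −1.88 (−2.15 to −1.63) and −1.29 (−2.52 to −0.27). Glul had 14950 UMIs and 153 CPM at P1 (150.1 to 155), 14414 UMIs and 155 CPM at P7 (152 to 157), and 10038 UMIs and 862 CPM at P14 (846 to 879). Its P14 level was 5.57 times the P7 level, a log2 ratio of 2.48 (2.44 to 2.51), while P1 and P7 differed by a log2 ratio of 0.02 (−0.01 to 0.05).

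**Figure D1:**
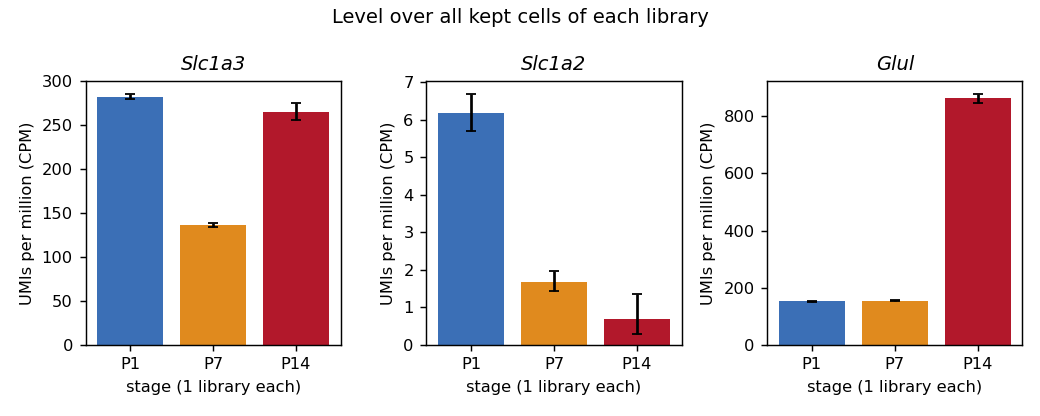
Level of Slc1a3, Slc1a2 and Glul (vertical axis, CPM) over all kept cells of the P1, P7 and P14 libraries, with bars starting at 0. Error lines are 95% Poisson intervals of counting error; Slc1a3 was lowest at P7 (137), Slc1a2 was lower at each stage (6.18, 1.68 and 0.687), and Glul stood at 862 at P14 against 153 and 155 before.

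These differences were read against all genes with 10 CPM or more in either library. At P7 against P1, 1 member, Slc1a3, was 2-fold or more lower, as were 6.57% of 8222 genes, and 9.74% were 2-fold or more higher. At P14 against P7, 1 member, Glul, was 2-fold or more higher, as were 21.3% of 9048 genes, while 8.64% were 2-fold or more lower. A larger share of genes thus passed this fold at P14, and 5.4% of genes had a larger increase than Glul. Slc1a2 did not reach 10 CPM in any library and was not counted.

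The 3 genes and 57 other glutamate genes were kept out of the variable genes, and the cells fell into 27 clusters. Of these, 13 were named after marker lists, each as "like" its cell type, and the others go by their leading gene. Classes present at P1 and P7 but with almost no P14 cells included tympanic border-like cells (2 clusters, with Aldh1a2 and Calb2, and with Sp5 and Ccn3, among their leading genes), cochlear mesenchyme-like cells (Isyna1, Col9a3, Crym) and cartilage-like cells (Dlx5, Sfrp4, Igf2). Of the clusters with hardly any P1 or P7 cells, the largest at P14 were led by Coch (1732 cells), Ptgds (855 cells) and Clec3b (312 cells). Schwann cell-like, endothelial-like, pericyte-like, macrophage-like and cochlear duct epithelium-like classes had 50 or more cells at every stage, and only there could a member be followed within a class from P7 to P14. A cluster of nearly 1 library may be that library rather than a cell type.

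At P1 Slc1a3 was concentrated in the tympanic border-like cells, a mesothelial layer under the basilar membrane. They had 17938 UMIs and 855 CPM (843 to 868) and were 19.8% of P1 cells but held 64.7% of the Slc1a3 UMIs of that library. At P7 they had 5849 UMIs and 608 CPM (593 to 624) and, as 9.60% of cells, held 46.0% of the UMIs. In both libraries this class stood above every other, at P7 at 3.64 times the class next in order. Both clusters of the class carried it, with 928 CPM in the Aldh1a2 cluster and 800.2 CPM in the Sp5 cluster at P1, and 648 and 420.2 CPM at P7.

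Among the classes described here, the dividing Cenpf cluster, given below, and cells of mesenchymal type came next. At P1 the cochlear mesenchyme-like cells were at 180 CPM (173 to 186), the Tac1 cluster, led also by Ogn and Col6a1, at 158 CPM, and cartilage-like cells at 101 CPM. At P7 the fibroblast-like cells (Aard, Col15a1, Lepr) had 167 CPM, the cochlear mesenchyme-like cells 115 CPM and cartilage-like cells 89.5 CPM. Neighbors in this middle part of the order often had overlapping intervals, as for the mesenchyme-like cells (115 CPM) and the Tac1 cluster (113 CPM) at P7.

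Most cells of the nerve, and endothelial-like cells, were at the other end. Endothelial-like cells had 17.2 CPM at P1 and 24.2 CPM at P7. The Nefh cluster, with Nefm among its leading genes, had 65.2 CPM at P1 and 18.7 CPM at P7. Schwann cell-like cells had 11.0 CPM at P1 (28 UMIs in 359 cells) and 11.6 CPM at P7 (153 UMIs in 2308 cells), and the Lgi4 cluster, which carried Sox2 and Ednrb among its leading genes, had 21.9 and 16.5 CPM. Neuron-like cells were at 8.1 CPM at P1 (49 UMIs in 289 cells), and the 21 hair cell-like cells held 3 UMIs. The dividing Cenpf cluster, in contrast, had 212 CPM at P1 and 146 CPM at P7, and the dividing Ube2c cluster 36.0 and 25.3 CPM.

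Slc1a3 was low in the epithelium. The cochlear duct epithelium-like cells had 146 UMIs and 63.2 CPM at P1 (53.3 to 74.3), 130 UMIs and 72.1 CPM at P7 (60.2 to 85.6), and 9 UMIs and 34.6 CPM at P14 (15.8 to 65.7). The P1 and P7 intervals overlap, and the log2 ratio of P14 against P7 was −1.06 (−2.22 to −0.09), in a class where 21.7% of genes were 2-fold or more lower. Per cell the UMIs were few: 82 of 270 epithelium-like cells at P1 held any, 4 held 5 or more, and the highest count in a cell was 9. At P7, 58 of 216 held any, 8 held 5 or more, and the highest count was 12. At P14, 4 of 79 held any, and 1 cell held 5 of the 9 UMIs. The list of inner phalangeal, border and other support cell markers named no cluster, and by marker UMIs alone only 5, 4 and 14 cells at P1, P7 and P14 answered to it, too few for a level.

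At P14 the highest levels lay in clusters with hardly any cells of the earlier libraries. In the Clec3b cluster the tympanic border marker list summed to 4652 CPM. The same sum was 4757 CPM in the Aldh1a2 cluster and 9644 CPM in the Sp5 cluster of the tympanic border-like class. It was 2940 CPM in the cochlear mesenchyme-like cells and 2658 CPM in the dividing Cenpf cluster. No marker of that list was among the 10 leading genes of the Clec3b cluster, which the naming rule left unnamed. Whether the Clec3b cluster is a P14 counterpart of that class was not tested. The Clec3b cluster, led also by Gpcpd1 and Rarres1, had 1212 UMIs and 1391 CPM (1314 to 1471), and as 5.91% of cells held 39.2% of the Slc1a3 UMIs. The Ptgds cluster, with Slc7a11 and Slc16a11 next, had 901 UMIs and 551 CPM (515 to 588) and, as 16.2% of cells, held 29.1%. The Coch cluster had 187 CPM (172 to 203) and, as 32.8% of cells, held 17.7%. These 3 levels were apart, with the Clec3b cluster 2.53 times (2.31 to 2.76) the Ptgds cluster and the Ptgds cluster 2.95 times the Coch cluster. The Ighm and Slco1a4 clusters, with 17 and 4 UMIs, were lowest at 13.6 and 11.8 CPM.

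**Figure D2:**
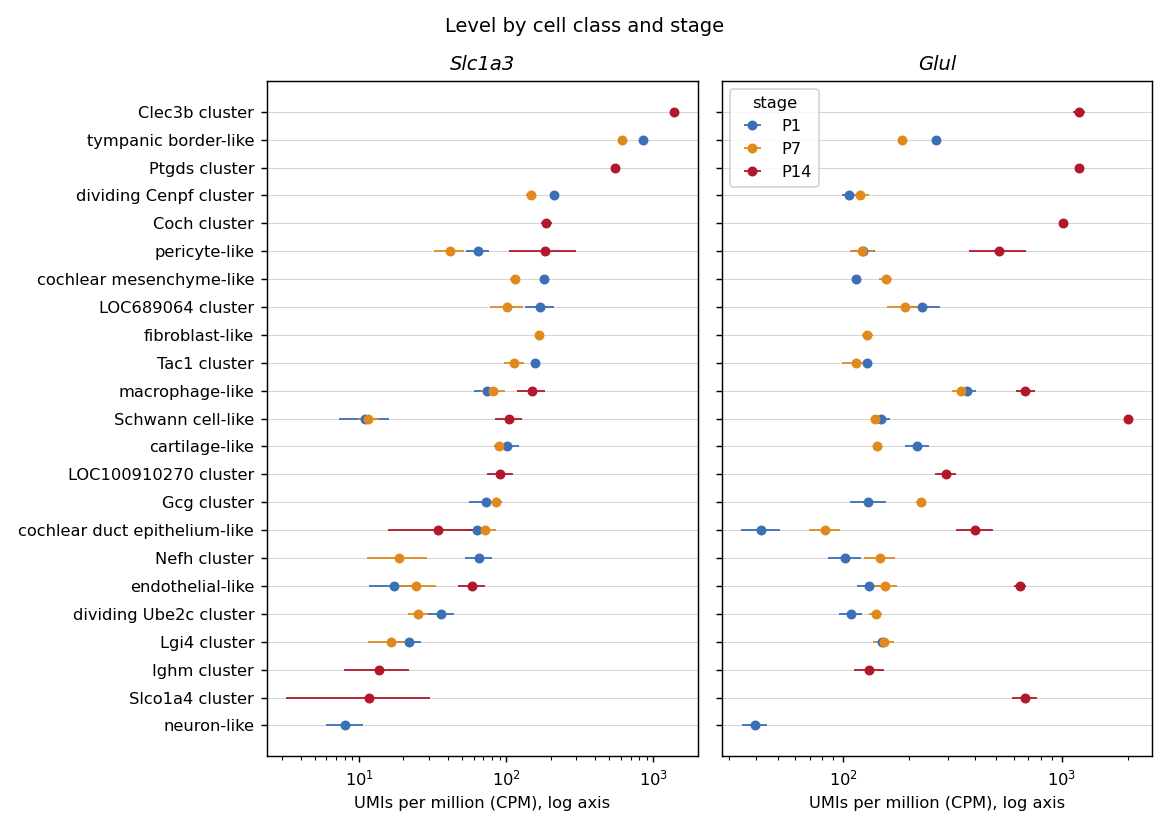
Level of Slc1a3 (left) and Glul (right) in CPM on a log axis for each class described here with 50 or more cells of a stage, one row per class, ordered by the highest Slc1a3 level, with points colored by stage and lines for 95% counting intervals. Slc1a3 spans from 8.1 in neuron-like cells at P1 to 1391 in the Clec3b cluster at P14, while the P1 and P7 points of Glul lie between 100 and 400 apart from epithelium-like and neuron-like cells, and most P14 points lie above them.

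Within classes, Slc1a3 at P7 was lower than at P1 in most cells that carried it. The log2 ratio was −0.49 (−0.53 to −0.45) in tympanic border-like cells, −0.65 (−0.77 to −0.52) in cochlear mesenchyme-like cells, −0.48 (−0.71 to −0.26) in the Tac1 cluster and −0.54 (−0.67 to −0.40) in the dividing Cenpf cluster. All were closer to 0 than the −1.05 of the whole library, in which the share of tympanic border-like cells was also lower. In cartilage-like cells (−0.17), the Gcg cluster (0.22), macrophage-like cells (0.14) and epithelium-like cells (0.19), the interval of the ratio included 0. In the Nefh cluster 85 UMIs at P1 stood against 19 at P7 (−1.80), and 13.4% of genes there were 2-fold or more lower.

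From P7 to P14, Schwann cell-like cells went from 11.6 CPM to 104 CPM (88 UMIs in 323 cells), a log2 ratio of 3.17 (2.77 to 3.55), where 20.1% of genes were 2-fold or more higher. Different clusters held the class at these stages: a cluster with Cldn19 among its leading genes held 2305 of the 2308 P7 cells, and a cluster led by Mt3 held 314 of the 323 P14 cells. In pericyte-like cells Slc1a3 had 78 UMIs and 41.2 CPM at P7 and 16 UMIs and 183 CPM at P14. Macrophage-like cells had 81.6 and 149 CPM, and endothelial-like cells 24.2 and 58.1 CPM. In the endothelial-like cells the mean of the per-cell CPM went the other way (log2 ratio −0.33), as did a call of cells by marker UMIs alone (−1.02).

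RNA of the large P14 clusters was also found in the other classes of that library. Coch was at 573 CPM in Schwann cell-like, 1186 in endothelial-like, 4114 in macrophage-like and 4158 CPM in pericyte-like cells. Had all Coch and Ptgds UMIs there come from the Coch and Ptgds clusters, Slc1a3 from the same source would have amounted to 17.4, 42.2, 91.0 and 42.9 CPM, beside measured levels of 104, 58.1, 149 and 183 CPM. After taking this amount away, 86.5, 15.8, 57.8 and 139.9 CPM were left, against 11.6, 24.2, 81.6 and 41.2 CPM at P7. By this reckoning, what was left lay above the P7 level in Schwann cell-like and pericyte-like cells and below it in endothelial-like and macrophage-like cells. The pericyte-like level at P14 came from 16 UMIs. RNA of the Clec3b cluster, which held 39.2% of the Slc1a3 UMIs at P14, was not part of the amount taken away. What was left may therefore be too high, and by how much was not tested. At P1 and P7 nothing was taken away for RNA of other cells. There Otor was at 15439 and 21094 CPM in cochlear mesenchyme-like cells. It was at 309 and 308 CPM in Schwann cell-like, 676 and 1307 CPM in epithelium-like and, at P1, 201 CPM in neuron-like cells. How much Slc1a3 such RNA brought to these low levels was not tested.

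The UMIs of a stage can also be laid out by class. The plot of shares places the cells of each library next to the UMIs of Slc1a3 and Glul that they held. Tympanic border-like cells made up a much larger part of the Slc1a3 UMIs than of the cells at P1 and P7, and the Clec3b and Ptgds clusters did so at P14.

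**Figure D3:**
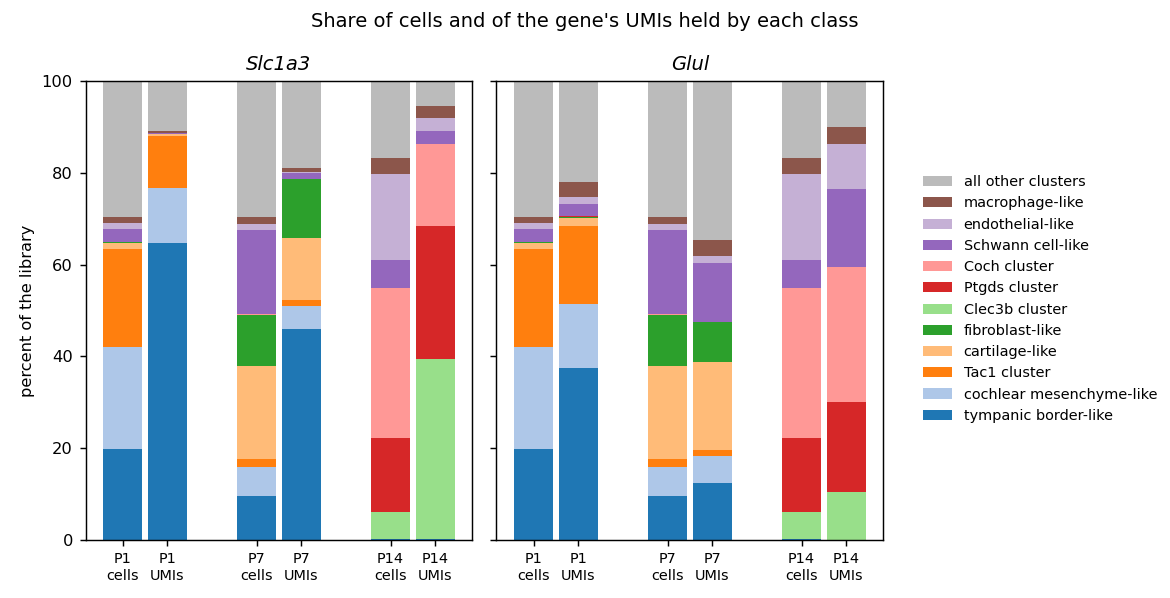
Stacked bars of the percent of cells and the percent of a gene's UMIs held by each class in the P1, P7 and P14 libraries, for Slc1a3 (left) and Glul (right), with each bar summing to 100%. For Slc1a3 the tympanic border-like class takes 64.7% of UMIs from 19.8% of cells at P1, and the Clec3b cluster 39.2% of UMIs from 5.91% of cells at P14; for Glul the bars of UMIs resemble the bars of cells more closely.

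Slc1a2 was found at P1 and P7 in classes that also carried Slc1a3, at low levels. At P1 it was at 10.7 CPM in tympanic border-like cells (224 UMIs, 9.33 to 12.2), 10.1 CPM in cochlear mesenchyme-like cells (186 UMIs, 8.71 to 11.7), 10.3 CPM in the Gcg cluster (9 UMIs) and 9.90 CPM in cartilage-like cells (11 UMIs). The intervals of these 4 overlap. The Tac1 cluster had 4.94 CPM (4.01 to 6.02) and the dividing Cenpf cluster 4.08 CPM.

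At P7 the same classes had 4.58, 2.92, 3.21 and 2.33 CPM, with log2 ratios against P1 of −1.22 (−1.72 to −0.75), −1.79 (−2.63 to −1.06), −1.67 (−2.82 to −0.39) and −2.08 (−3.06 to −0.98). Schwann cell-like cells held 0 UMIs of Slc1a2 in 2990 cells over the 3 libraries, which allows up to 0.181 CPM. Neuron-like cells held 5 UMIs at P1, hair cell-like cells 0 and epithelium-like cells 3, all from P1. Of the 8 UMIs at P14, the Clec3b cluster held 4, the Coch cluster 3 and pericyte-like cells 1, and the Ptgds cluster held none, which allows up to 1.83 CPM.

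Glul was found in every class, with a narrower range than Slc1a3 before P14. At P1 macrophage-like cells were highest at 368 CPM (337 to 402), above the tympanic border-like cells at 267 CPM (260 to 274). Within the tympanic border-like class the Aldh1a2 cluster had 380 CPM and the Sp5 cluster 180 CPM. Schwann cell-like cells had 148 CPM, the Lgi4 cluster 151, endothelial-like cells 131, pericyte-like cells 123 and cochlear mesenchyme-like cells 114 CPM, and most neighbors in this part of the order had overlapping intervals. Epithelium-like cells (42.0 CPM, 97 UMIs) and neuron-like cells (39.3 CPM, 238 UMIs) were lowest among classes with 50 or more cells, below the class next in order by a factor of 2.41 (1.84 to 3.17). At P7 the order was again headed by macrophage-like cells at 344 CPM, 1.52 times the Gcg cluster at 226 CPM, and the epithelium-like cells were lowest at 82.1 CPM.

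From P1 to P7 Glul differed by class in direction. It was lower in tympanic border-like cells (log2 ratio −0.52, −0.60 to −0.44) and cartilage-like cells (−0.61, −0.80 to −0.41), and higher in cochlear mesenchyme-like cells (0.45), the Gcg cluster (0.80) and epithelium-like cells (0.97, 0.59 to 1.35). Schwann cell-like (−0.09), macrophage-like (−0.10) and pericyte-like cells (−0.02) had intervals that include 0. None of these was a 2-fold difference.

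At P14 Glul was higher than at P7 in all 5 classes that could be followed. Schwann cell-like cells had 376 UMIs and 148 CPM at P1, 1842 UMIs and 139 CPM at P7, and 1704 UMIs and 2012 CPM at P14 (1917 to 2110). The P14 level was 14.4 times the P7 level (log2 ratio 3.85, 3.76 to 3.95), and 1.9% of genes had a larger increase in that class. With 6.12% of P14 cells, it held 17.0% of the Glul UMIs of the library and was the highest class there. Mag, Prx and Mbp, genes of myelin, were among the 10 leading genes of the cluster that held most of these P14 cells.

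Endothelial-like cells had 131, 156 and 645 CPM at the 3 stages, 4.14 times higher at P14 than at P7 (log2 ratio 2.05, 1.84 to 2.26). Pericyte-like cells had 123, 122 and 514 CPM, the last from 45 UMIs in 62 cells (log2 ratio 2.08, 1.58 to 2.54). Epithelium-like cells had 42.0, 82.1 and 400.1 CPM, the last from 104 UMIs in 79 cells (2.29, 1.91 to 2.66). Macrophage-like cells had 368, 344 and 681 CPM (0.98, 0.79 to 1.18), the smallest of the 5 ratios and just under 2-fold. A mitochondrial limit of 10% in place of 25% brought the macrophage-like ratio to 0.15, with 339 P14 cells in the class in place of 191. In these classes 29.9%, 38.3%, 17.4% and 21.8% of genes were 2-fold or more higher.

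**Figure D4:**
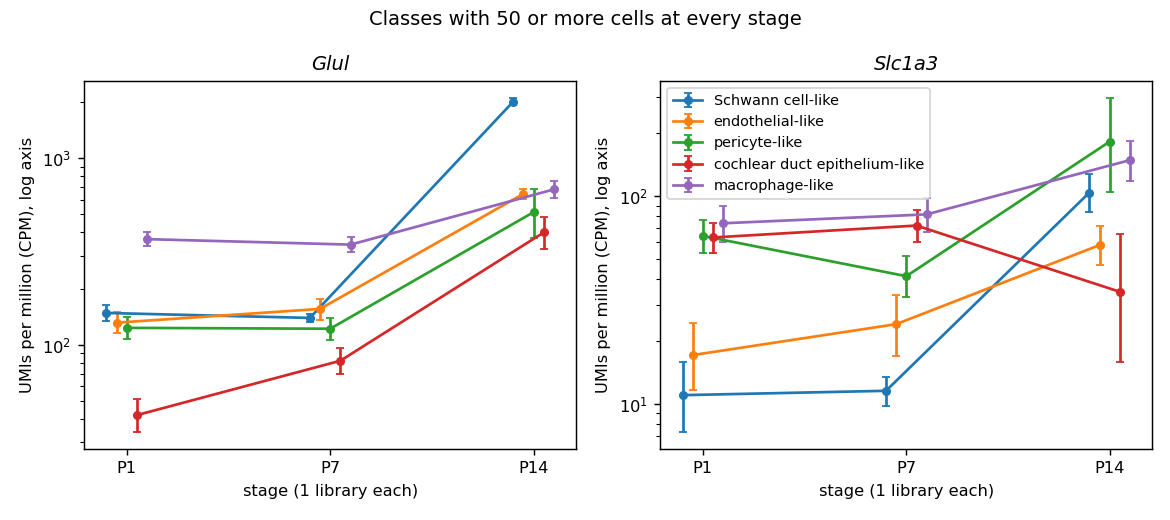
Level of Glul (left) and Slc1a3 (right) in CPM on a log axis at P1, P7 and P14 in the 5 classes with 50 or more cells at every stage, with lines joining the libraries and 95% counting intervals. Glul ends above its P7 level in all 5, from 139 to 2012 in Schwann cell-like cells, while Slc1a3 ends higher in 4 and lower in epithelium-like cells (72.1 to 34.6, from 9 UMIs).

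The amount of Glul that RNA of the Coch and Ptgds clusters would bring was worked out as for Slc1a3. It came to 55.5 CPM in Schwann cell-like cells beside 2012 measured, 128 beside 645 in endothelial-like cells, 230 beside 514 in pericyte-like cells and 328 beside 681 in macrophage-like cells. After taking it away, 353 CPM were left in the macrophage-like cells, against 344 CPM at P7. In epithelium-like cells, where Ptgds itself stood at 31557 CPM, the same sum gave 607 CPM, more than the 400.1 measured. That sum also gave 264 CPM of Slc1a3 there, beside 34.6 measured, and Ptgds was already at 2127 CPM in this class at P7. Reckoned from Coch alone, the amount of Glul was 96.7 CPM.

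In the clusters of P14 alone, Glul was at 1199 CPM in the Clec3b cluster (1128 to 1274), 1196 CPM in the Ptgds cluster (1143 to 1250) and 1010 CPM in the Coch cluster (974 to 1047). The Coch cluster held the largest part of the UMIs (29.5%), less than its 32.8% of the cells. The Slco1a4 cluster, with endothelial and pericyte genes (Sox17, Flt1, Acta2), had 677 CPM. The clusters of blood lineage were lower, with 294 CPM in the LOC100910270 cluster (Lyz2, Srgn) and 131 CPM in the Ighm cluster (Vpreb2, Cd79b). The 131 CPM of the Ighm cluster is within the range of the P1 and P7 classes. The reference table lists the pseudogenes Glul-ps1 and Glul-ps2, and how reads of near-identical copies were counted is not known, so the level of Glul is uncertain to that extent.

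To set cells of unequal depth side by side, each cell was thinned to 1000 UMIs, and the share of cells with at least 1 UMI was taken. Slc1a3 was found in 19.1% of P1 cells, 10.9% of P7 cells and 18.8% of P14 cells, which followed the levels, whereas without thinning the shares were 53.3%, 39.0% and 25.5%. In tympanic border-like cells the thinned share was 51.7% (49.8 to 53.7) at P1 and 43.3% (40.5 to 46.2) at P7, and in the Clec3b cluster 63.9% (58.1 to 69.3). Neuron-like cells, which gave 1.4% (4 of 289), and the Ighm cluster, also at 1.4% (4 of 285), show the share in cells low for the gene. Schwann cell-like cells were at 1.1% at P1 and P7 and at 10.1% (7.0 to 14.0) at P14.

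Glul was found in 13.6%, 13.9% and 50.7% of thinned cells at P1, P7 and P14. In Schwann cell-like cells the share was 12.5% (9.3 to 16.4) at P1, 11.1% (9.9 to 12.5) at P7 and 77.9% (72.8 to 82.4) at P14. Before thinning, a UMI was held by 45.4% of this class at P7 and by 88.9% at P14. The lowest share at P14 was 9.8% in the Ighm cluster (28 of 285 cells). Slc1a3 and Glul were found in the same thinned cell in 41.9% (36.2 to 47.7) of the Clec3b cluster, 23.3% of the Ptgds cluster, 11.3% of tympanic border-like cells at P1 and 8.1% of them at P7.

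Across the 26 clusters with 50 or more cells, the genes most like a member were ranked by Spearman's rho of CPM over 7750 genes. The clusters share libraries and depth, and the values are descriptions. For Slc1a3 they were Dpt and Pdgfra (both 0.88), Plekhh2 (0.87), Kcnk2 (0.86) and Cyp1b1 (0.85), where Dpt encodes a matrix protein of connective tissue and Pdgfra a receptor of mesenchymal cells. For Slc1a2 they were Ccn3 (0.90), Otor, Pdzrn4, Tnrc18 and Etv4, and for Glul they were Abca1 (0.90), a cholesterol exporter, Iffo1, Prrt1, Sec14l1 and Foxj2. Between the members, rho was 0.57 for Slc1a3 and Slc1a2, 0.29 for Slc1a3 and Glul, and −0.20 for Slc1a2 and Glul.

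The other 57 genes of glutamate handling give the setting of the members. At P14 against P7, 28 of them reached 10 CPM, and 15 were 2-fold or more higher and 4 lower. Of all genes tested, 21.3% were 2-fold or more higher and 8.64% lower. The median log2 ratio was 1.13 against 0.17 for all genes. At P7 against P1, 24 reached it, and 1 was higher and 4 lower, beside 9.74% and 6.57% of all genes. The median was −0.10 against 0.13. These counts are over all cells, so differences in the classes present in each library enter them. Within Schwann cell-like cells, 12 of 21 were 2-fold or more higher at P14 than at P7 and 1, Grin2b, was lower, beside 20.1% and 16.3% of all genes tested there.

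Among the transporters of the same family, Slc1a1 (the neuronal and epithelial transporter EAAC1) reached at most 13.9 CPM, in the Ptgds cluster, and Slc1a4, a carrier of neutral amino acids, 30.8 CPM, in pericyte-like cells. Slc1a5, the glutamine carrier ASCT2, was highest in the Ighm cluster at 251 CPM and stood at 112 CPM in the Clec3b cluster. Slc1a6 and Slc1a7 held 76 and 6 UMIs in all kept cells.

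Of the other enzymes that use glutamate, Glud1, which deaminates it, was at 81.2, 63.7 and 66.0 CPM at P1, P7 and P14, and Got2 at 95.8, 64.4 and 57.1 CPM. Got1 and Got2 were highest in neuron-like cells at 233 and 273 CPM, where Glul had 44.1 CPM.

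Of the 4 glutamine carriers listed, Slc38a2 and Slc38a3 were highest in the Ptgds cluster, Slc38a1 in neuron-like cells (56.0 CPM) and Slc38a5 in endothelial-like cells (95.6 CPM). Slc38a3, which releases glutamine from glia, had 260.5 CPM in the Ptgds cluster, and Slc38a2, which brings it into cells, 638 CPM there. Slc7a11, which exports glutamate in exchange for cystine, had 5.8 and 5.9 CPM at P1 and P7 and 427 CPM at P14, and reached 2054 CPM in the Ptgds cluster. Atp1b2, a subunit of the sodium pump, whose gradient drives uptake, had 572 CPM in the Ptgds cluster. In Schwann cell-like cells, Slc38a2 was at 107 CPM at P7 and 490 CPM at P14, beside Glul at 139 and 2012 CPM.

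Among the clusters ranked, the vesicular transporters Slc17a7 and Slc17a6 were highest in neuron-like cells, at 167 and 46.5 CPM, and receptor subunits in several classes. The vesicular transporter Slc17a8 held 55 UMIs in all kept cells and reached at most 0.653 CPM in those clusters, which do not include the hair cell-like cells. The receptor subunit Grin1 was highest in neuron-like cells at 71.8 CPM. Grin2b was highest in Schwann cell-like cells, and was 97.2 CPM there at P7 and 29.5 CPM at P14. Gria4 was highest in the Coch cluster at 221 CPM, Gria2 in endothelial-like cells at 109 CPM and Gria3 in cochlear mesenchyme-like cells at 81.3 CPM. Kcnj10 and Aqp4, a channel pair that accompanies GLAST in brain and retinal glia, held 51 and 131 UMIs in all.

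**Figure D5:**
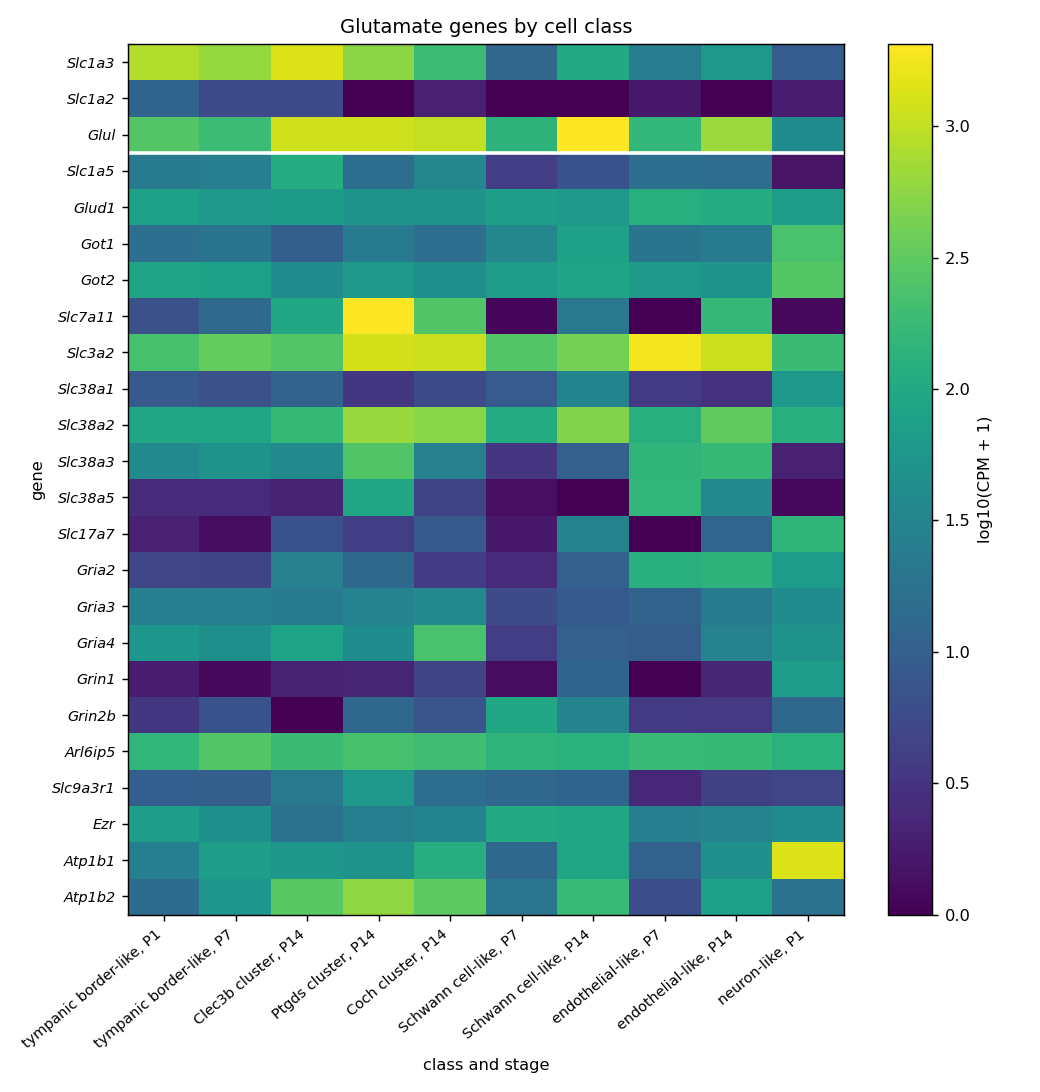
Heat map of log10(CPM + 1) for the 3 members (above the white line) and 21 other glutamate genes with 50 CPM or more in at least 1 cluster, in rows, by class and stage, in columns. Slc1a3 is bright in the tympanic border-like columns and in those of the Clec3b and Ptgds clusters. Glul is bright in the P14 columns of the Clec3b, Ptgds and Coch clusters and of Schwann cell-like cells. Atp1b2 was highest in the Ptgds cluster (572 CPM) and next in the Coch cluster (298 CPM). Slc7a11 is brightest in the Ptgds column, and the neuron-like column is bright for Got1, Got2, Slc17a7 and Atp1b1.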

How the data were processed

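Per the file headers and the study's methods, the authors prepared 10x Genomics 3′ libraries, ran Cell Ranger 3.1.0 against rn6, and deposited matrices of raw UMI counts per gene and barcode, which were used as deposited. Gene coordinates are not printed, since the reference table is for another assembly. Cells had 501 to 4999 genes, at least 500 UMIs and under 25% of UMIs on Mt- genes. The members and lists were chosen with earlier results of these data known.

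Cells were clustered in Seurat 5.3.0 (R 4.3.3) with LogNormalize, 2000 vst genes less the members and the 57 pathway genes among them (18 left out), 10 components, resolution 0.8 and seed 0. For each cluster, the marker list with the highest log2 ratio of summed CPM to other cells (10 CPM added) was taken. It named the cluster if 3 or more of its markers were found in 10% of the cells. At least 1 marker had to be among the 10 top genes, with no other list having as many there. Top genes were ranked by log2 ratio to other cells (10 CPM added, UMI in 25% of cells). No other list raised 2-fold or more could sum to more CPM. No cluster was named where Scrublet marked 50% or more of cells. This rule was coded after values were seen. Scrublet, run per library in scanpy 1.11.5, marked 622, 775 and 2 cells. The last is 0.0379% of the P14 cells, so the caller did not work there, and marked cells were kept.

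UMIs were summed per class and stage where there were 50 or more cells. Poisson, binomial (Clopper-Pearson) and ratio intervals are exact at the 95% level, and for a count of 0 the bound is that of 3 counts. Genes named are the members, the 5 genes most like each, the leading genes of the clusters described and the pathway list, of which some genes, and 1 cluster, are not reported here. Python 3.11.15, numpy 2.4.6, scipy 1.17.1, pandas 2.3.3 and matplotlib 3.10.9 were used. Of the steps, only the ratio between stages with its interval was tried on simulated data. These were Poisson counts for P14 against P7 in all cells.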

Additional observations from a re-analysis of the deposited data

Results flagged for a closer look

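Each stage has 1 library, so no sample could stand apart from its group, and the differences listed here were not tested. Glul at P7 against P1 went in opposite directions between classes: counting intervals lay above 0 in 6 classes, with the largest log2 ratio in cochlear duct epithelium-like cells (0.97), and below 0 in 2, with the lowest in cartilage-like cells (−0.61). Slc1a3 at P14 against P7 lay above 0 in 4 classes, with the largest ratio in Schwann cell-like cells (3.17). In 2 of these 4, endothelial-like and macrophage-like cells, it was below the P7 level (15.8 against 24.2 CPM and 57.8 against 81.6 CPM) once the amount reckoned from RNA of the Coch and Ptgds clusters was taken away. It lay below 0 in cochlear duct epithelium-like cells (−1.06, from 9 UMIs at P14).

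The members were also found in barcodes that failed the cell filter, which numbered 1289, 1920 and 1077 in the order of the stages. There Slc1a3 was at 286 CPM at P1, 90.5 CPM at P7 and 156 CPM at P14, and Glul at 131, 145 and 549.6 CPM. Slc1a2 was at 3.87 CPM at P1 (63 UMIs) and 0.489 CPM at P7 (4 UMIs). At P14 Slc1a2 had 0 UMIs, which allows up to 3.08 CPM, so its order over the 3 stages could not be seen there. As in kept cells, Glul was highest at P14 and Slc1a3 lowest at P7, while the P14 level of Slc1a3 in these barcodes was further below P1.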

How the results depend on the processing

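No paired analysis was possible because each stage has 1 library. Of 99 alternative log2 ratios, 51 lay within the counting interval of the reported value and 48 outside it, and 6 had the other sign. Of these, 3 were of Glul in all cells at P7 against P1 (reported 0.02). The others were Glul in tympanic border-like cells against all others by the mean of per-cell CPM (−0.28, reported 0.38), and Slc1a3 in endothelial-like cells at P14 against P7 by that mean (−0.33, reported 1.26) and with cells called by marker UMIs alone (−1.02). The cause was not tested.

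In all cells, Slc1a3 at P7 against P1 was −1.09 with all deposited barcodes and −1.13 with a total free of mitochondrial, haemoglobin and ribosomal protein genes. At P14 against P7 it was 0.77 with a mitochondrial limit of 10%, 1.02 by the mean of per-cell CPM, 0.55 with median-ratio scaling and 0.82 with the reduced total. Glul at P7 against P1 was −0.032, −0.049 and −0.061 with the 10% limit, the per-cell mean and the reduced total, so its sign was not settled. At P14 against P7 it was 2.43, 2.63, 2.07 and 2.34 with the 10% limit, the per-cell mean, median-ratio scaling and the reduced total.

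Slc1a3 in tympanic border-like cells against all others (reported 2.76) was 2.58 by the per-cell mean, 2.34 with 20 components, 2.64 with the 10% limit, 2.88 without Scrublet-marked cells and 2.17 with cells called by marker UMIs alone. In Schwann cell-like cells (reported −3.84) it was −3.53, −3.31 and −3.37 with the first 3 of these, −3.63 at resolution 1.2 and −2.43 with cells called by marker UMIs.

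Glul at P14 against P7 in Schwann cell-like cells was 4.07 by the per-cell mean, 3.64 with median-ratio scaling, 3.37 with cells called by marker UMIs and 3.60 with the 10% limit. With median-ratio scaling it was 1.65 in endothelial-like, 1.55 in pericyte-like and 0.72 in macrophage-like cells. The 10% limit gave 2.78 in epithelium-like and 0.15 in macrophage-like cells, and the call by marker UMIs 0.35 in macrophage-like cells. Fewer than 50 cells of a stage, or no class of that name, left no value for the endothelial-like cells with the 10% limit or without Scrublet-marked cells, nor for the epithelium-like cells without Scrublet-marked cells or by marker UMIs. Thinned to 2000 UMIs and without thinning, 73.8% and 94.0% of tympanic border-like cells at P1 held Slc1a3, and of Schwann cell-like cells 89.0% and 88.9% at P14 and 21.1% and 45.4% at P7 held Glul. The P14 library has the fewest cells and UMIs, which limits Slc1a2, the hair cells and the pericyte-like and epithelium-like classes there.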
